A study of Mus musculus with 6 samples.

Results

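The solute carriers and pumps that move organic anions, organic cations and bile acids across membranes were examined in the lateral septum, a forebrain region, of mice fed the antipsychotic olanzapine. They were taken by gene symbol as all genes of the organic anion transporting polypeptide family (Slco), the organic ion transporter family (Slc22a), the sodium and bile acid cotransporter family (Slc10a) and the family of multidrug resistance pumps and sulfonylurea receptors (Abcc). The symbols matched 57 rows, of which Slco6b1, annotated as a pseudogene and without a read, was left out. The other 56 genes, among 35415 in the files, comprised 14 of Slco, 25 of Slc22a, 7 of Slc10a and 10 of Abcc.

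The mice were female C57BL/6 animals of WT genotype that arrived at 8 weeks of age and were acclimated for 1 week. The olanzapine group then ate maintenance feed with olanzapine at 50 mg per kg for 12 weeks, and the control group ate the feed without the drug. Each group comprised 3 RNA-seq libraries, and each library was a pool of septal tissue from 3 mice, so the spread given here is between pools and that between single mice is not known. The comparison asked how the transcripts of the lateral septum differed after the drug.

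In the liver, carriers on the sinusoidal face of hepatocytes take bile acids, bilirubin and drugs up from blood, and Abcc pumps send conjugates on into bile or back into blood. In the brain, other members of the same families sit in capillary endothelium and in the choroid plexus, the epithelium that makes cerebrospinal fluid, where they take up thyroid hormone and clear organic anions. Some relatives do other work: Abcc8 and Abcc9 encode the regulatory subunits of ATP-sensitive potassium channels, and Slc10a4 marks synaptic vesicles.

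The libraries held 38208153 to 39868872 counted reads, and the first principal component, with 36.5% of the variance, separated the groups. Of 8 marker genes of lateral septum neurons all were tested and 0 were called, with 3 lower at an unadjusted p under 0.05 in edgeR against 8.4% of all genes, and 6 of the 8 log2 fold changes were negative, with a median of -0.32. Their summed level was 478 to 559 FPKM (fragments per kilobase of transcript, scaled to the mapped fragments) in the control pools and 480 to 558 FPKM in the olanzapine pools. All 14 hepatocyte markers were called higher in the olanzapine pools, with a summed level of 8.52 to 14.1 FPKM in the control pools and 147 to 192 FPKM in the olanzapine pools. The 9 choroid plexus markers summed to 45.4, 1897 and 5376 FPKM in control pools 1 to 3 and to 804, 3460 and 29.2 FPKM in olanzapine pools 1 to 3, so this tissue differed widely between pools within both groups. A gene was called when its Benjamini-Hochberg adjusted p from edgeR's quasi-likelihood test was under 0.05 over the 17255 genes tested and its fold change was beyond 2 in either direction.

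The upstream sequences of 4 genes are shown first, because they represent the changes and levels described below: Slco1b2 and Slc10a1, the 2 tested uptake carriers of hepatocytes, Abcc5, the pump that rose, and Slc22a17, the most abundant transcript. Each is the stretch of 250 bases before the RefSeq start site on the gene's own strand, in build GRCm38.p6. Slco1b2 lies at chr6:141629268-141629517 on the plus strand, and on the minus strand Slc10a1 lies at chr12:80968706-80968955, Abcc5 at chr16:20426395-20426644 and Slc22a17 at chr14:54913133-54913382. Capitals mark GTTAAT, the core of the binding site of the hepatocyte factor HNF1, in Slco1b2, and CpG dinucleotides in the others.
Slco1b2: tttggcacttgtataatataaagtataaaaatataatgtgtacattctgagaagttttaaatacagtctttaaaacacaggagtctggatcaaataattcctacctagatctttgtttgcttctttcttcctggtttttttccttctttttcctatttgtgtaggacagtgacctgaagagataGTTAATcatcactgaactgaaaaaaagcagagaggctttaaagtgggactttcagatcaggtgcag
Slc10a1: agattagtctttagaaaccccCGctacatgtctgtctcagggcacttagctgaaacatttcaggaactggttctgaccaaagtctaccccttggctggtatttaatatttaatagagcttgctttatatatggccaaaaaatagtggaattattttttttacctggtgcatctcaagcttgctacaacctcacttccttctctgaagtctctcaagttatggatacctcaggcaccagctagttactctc
Abcc5: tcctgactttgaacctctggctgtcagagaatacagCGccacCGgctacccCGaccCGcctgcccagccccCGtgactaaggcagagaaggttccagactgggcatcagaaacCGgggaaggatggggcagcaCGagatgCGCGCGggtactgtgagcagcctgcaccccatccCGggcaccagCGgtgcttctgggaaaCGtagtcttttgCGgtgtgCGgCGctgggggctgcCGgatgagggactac
Slc22a17: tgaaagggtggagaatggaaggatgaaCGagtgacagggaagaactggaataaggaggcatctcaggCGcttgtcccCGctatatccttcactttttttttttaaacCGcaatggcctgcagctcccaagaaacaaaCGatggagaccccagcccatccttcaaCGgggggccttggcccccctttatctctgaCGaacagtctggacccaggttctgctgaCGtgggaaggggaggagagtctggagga
RefSeq windows, which run on to 50 bases after the start, were found for 45 of the 56 genes, with 53 windows in all. The letters GTTAAT stood on either strand in 5 of the 53 windows, those of Slco1b2, Slc22a6, Slc22a8, Slc10a2 and Slc22a29, against 7.10% of 32851 windows in the table. In Slco1b2 they began 66 bases before the start. A site of the hepatocyte factor HNF4, searched on both strands as CAAAGTCCA, was in the window of 0 of these genes and in 0.475% of all windows. These are letter matches, with no measurement of binding. CpG dinucleotides were counted per gene in the window that held the most. The 15 genes with a window among the 19 with a mean of at least 1 FPKM held a median of 18. The 18 with a window among the 21 genes under the count filter held a median of 2. The median of all windows, each counted singly, was 7, so it is not the same measure. Slco1b2 held 0, Slc10a1 held 2 at the start shown and 6 at its other RefSeq start, Slc22a17 held 13 and Abcc5 held 24.

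Of the 56 genes, 35 passed the filter on low counts and were tested. Another 8 had 0 counts in all 6 pools (Slc10a5, Slc22a16, Slc22a20, Slc22a22, Slc22a26, Slc22a27, Slco6c1 and Slco6d1), 10 reached a highest count of 1 to 10 in a pool, and 3 passed 10 counts in a pool without passing the filter. A mean level of at least 1 FPKM was reached by 19 genes and of at least 5 FPKM by 7.

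Slc22a17, the receptor for the iron carrier lipocalin 2, made up 53.8% to 57.7% of the summed FPKM of all 56 genes in every pool. Its level was 119 ± 3.28 FPKM (SD, n = 3 pools) under the control diet and 122 ± 10.1 FPKM (SD, n = 3) in the olanzapine group. Its counts were 29238, 29824 and 30525 in the 3 control pools in order, against 27567, 32210 and 29482 in olanzapine pools 1 to 3, so the groups overlapped. The log2 fold change was 0.02, with a 95% interval from -0.16 to 0.19. Next in level came Slco1c1, the thyroxine carrier of brain barriers, at 17.8 FPKM over the 6 pools, then Abcc5 at 13.9 FPKM, the orphan carrier Slc22a23 at 10.1 FPKM and the prostaglandin carrier Slco3a1 at 9.62 FPKM. The pools of Slco1c1 ran from 10.8 to 26.6 FPKM and overlapped those of Abcc5, and the pools of Slc22a23 and Slco3a1 overlapped each other. The counts of Slc22a23 were 3252, 3347 and 2964 in the control pools, against 3349, 3285 and 3117 in the olanzapine pools, which overlapped.

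**Figure D1:**
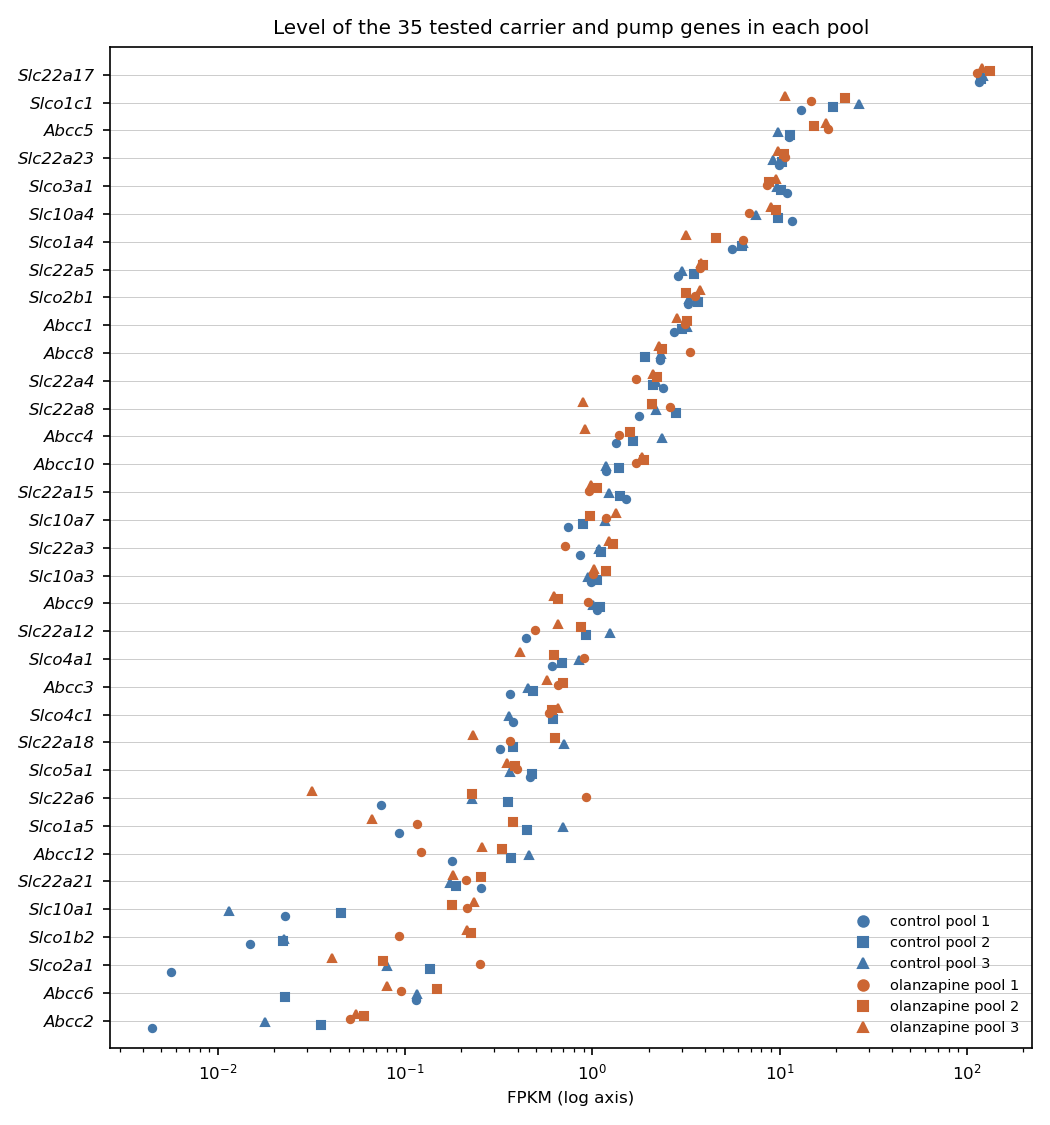
Level of each of the 35 tested genes in FPKM on a log axis, with 1 point per pool, blue for control and orange for olanzapine, and circle, square and triangle for pools 1, 2 and 3. Slc22a17 lies near 120 FPKM in all pools, while Slc10a1 and Slco1b2 lie near the bottom with the olanzapine pools to the right of the control pools.

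Slco1b2 rose and was the only one of these genes called higher, against 0.95% of all 17255 genes tested, and 0 were called lower, against 0.058%, or 1.01% in either direction. Without the limit on the fold change, Slco1b2 and Abcc5 passed the adjusted p, against 1.83% of all genes for rises, and 0 fell, against 0.493%, or 2.32% in either direction. At an unadjusted p under 0.05, edgeR placed 5 higher (Abcc5, Slco1b2, Slc10a1, Abcc10 and Abcc3) against 9.19% of all genes, and 3 lower (Slc22a15, Abcc9 and Slco3a1) against 8.4%. DESeq2 called 2 higher, Slco1b2 and Slc10a1, against 1.42% of the genes it gave an adjusted p, and 0 lower. Abcc5 and Abcc10 also passed its adjusted p, as did 3.37% of all genes in that direction. The olanzapine pools lay wholly above the control pools in 7 of the tested genes and wholly below in 3, against 13.3% and 11% of all genes. The median log2 fold change of the 35 tested genes was 0.02, with 20 positive and 15 negative values, beside a median of 0.00 over all genes. The 95% interval included 0 for 27 of the 35, with a median width of 1.04 on the log2 scale.

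**Figure D2:**
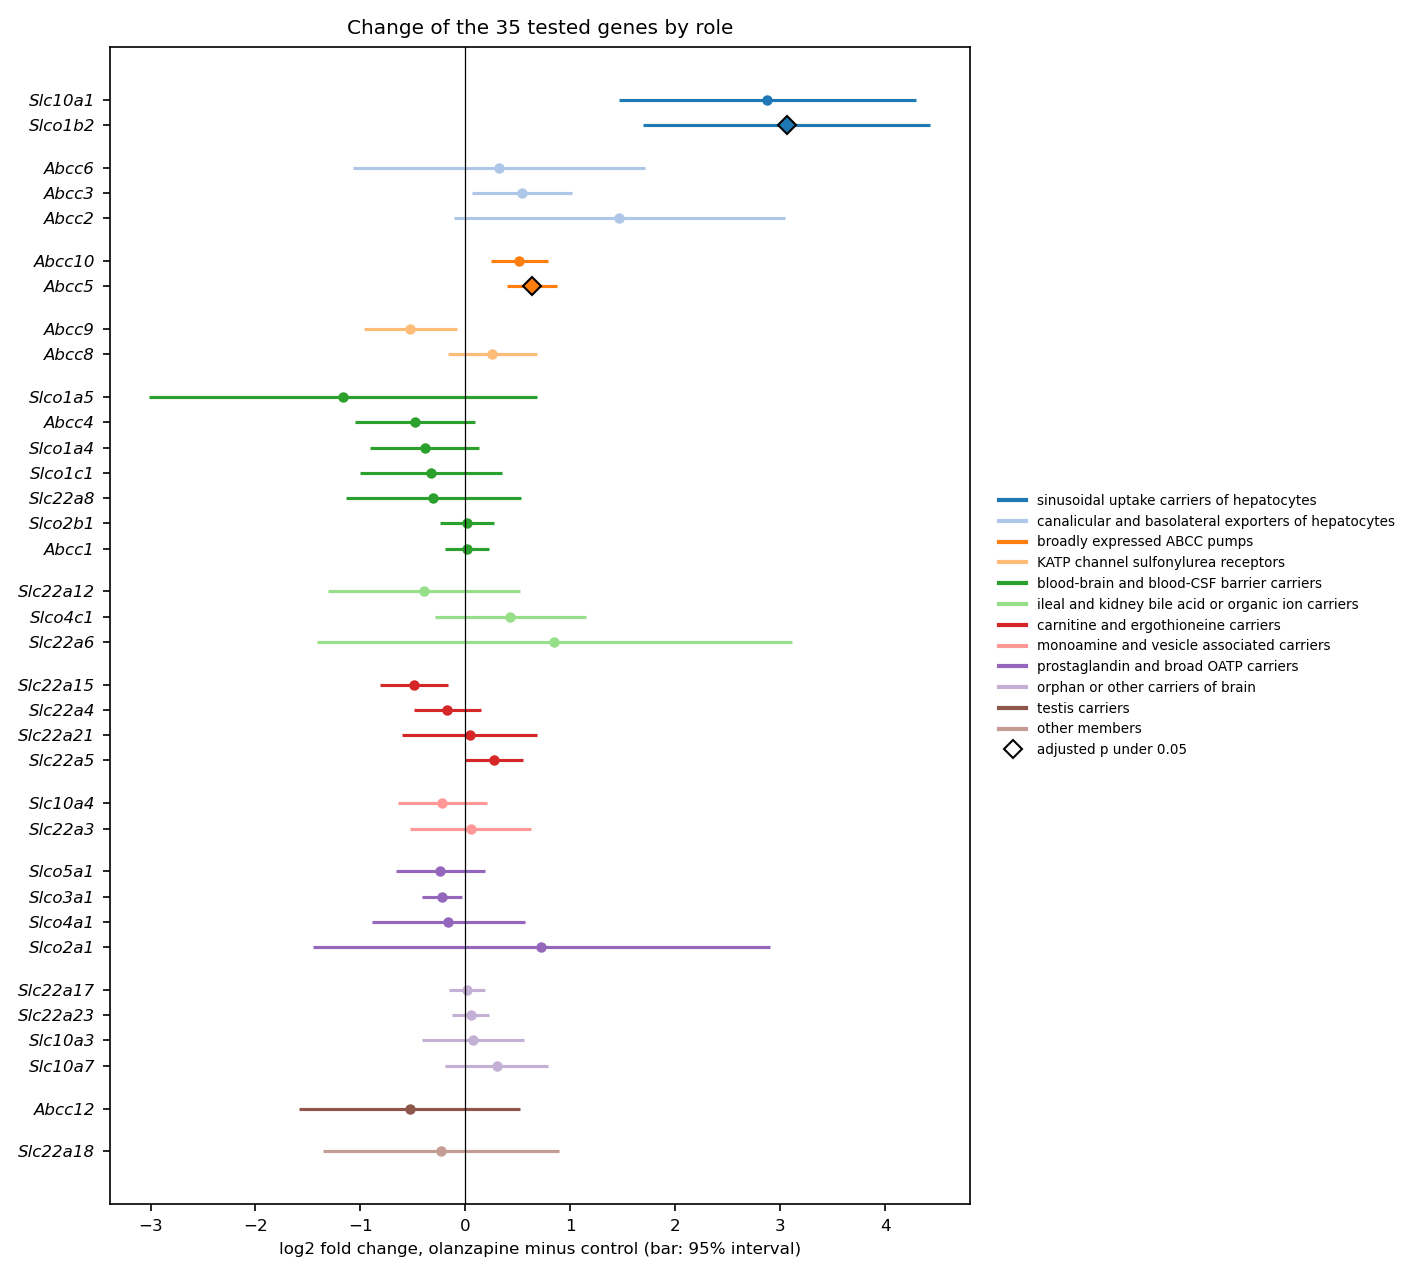
Log2 fold change between the olanzapine and control groups for each tested gene, with its 95% interval as a bar, grouped and coloured by role; diamonds mark an adjusted p under 0.05 from edgeR. Slco1b2 at 3.07 and Abcc5 at 0.64 are the 2 diamonds, and the bars of 27 genes cross 0.

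Of 4 uptake carriers of the hepatocyte's sinusoidal face, all scarce in the control pools, 1 was called higher in the olanzapine pools, 1 missed the threshold, and 2 did not pass the count filter. Slco1b2 encodes Oatp1b2, which takes up bilirubin, bile acids and many drugs. It had 2, 3 and 3 counts in the 3 control pools in order, against 12, 29 and 28 in olanzapine pools 1 to 3. Every olanzapine pool thus lay above every control pool, with olanzapine pool 1 the lowest of its group. The level was 0.0199 ± 0.00439 FPKM (SD, n = 3 pools) under the control diet and 0.177 ± 0.0735 FPKM (SD, n = 3) in the olanzapine group. The log2 fold change was 3.07 (SE 0.59) (adjusted p = 0.0417, edgeR's quasi-likelihood test, Benjamini-Hochberg adjusted). The ratio of the summed counts, scaled for library size, was 8.75, with a 95% exact counting interval from 4.20 to 21.1. Such intervals treat the summed reads as independent and leave out the spread between pools. No molecular identifiers are named for the reads, so repeated reads of a molecule cannot be told apart either. The call rested on all pools but olanzapine pool 1: the adjusted p was 0.0312 without that pool and 0.121 to 0.166 without any other, and 0.0533 when no count filter was applied.

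Slc10a1, which encodes Ntcp, the sodium-driven bile acid carrier of hepatocytes, had 2, 4 and 1 counts under the control diet, against 18, 15 and 20 under olanzapine. The groups did not overlap, and the olanzapine pools were close to each other. Its log2 fold change was 2.88 (SE 0.61), and its adjusted p of 0.0573 (edgeR) missed the threshold, while DESeq2 gave an adjusted p of 0.0308. The counting interval of its ratio of 7.69 ran from 3.48 to 20.0.

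Another 2 sinusoidal carriers did not pass the count filter, and without the filter neither reached an unadjusted p under 0.05 in edgeR or DESeq2. Slc22a7, the anion carrier Oat2, had 2, 3 and 1 against 8, 1 and 9 counts, so olanzapine pool 2 lay among the control pools. Slco1a1, a sex-dependent carrier of liver, had 1, 0 and 0 against 4, 2 and 2 counts. Summed over these 4 carriers, the counts were 7, 10 and 5 in the control pools, against 42, 47 and 59 in the olanzapine pools, and the summed level was 0.0468 to 0.106 FPKM against 0.430 to 0.578 FPKM.

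**Figure D3:**
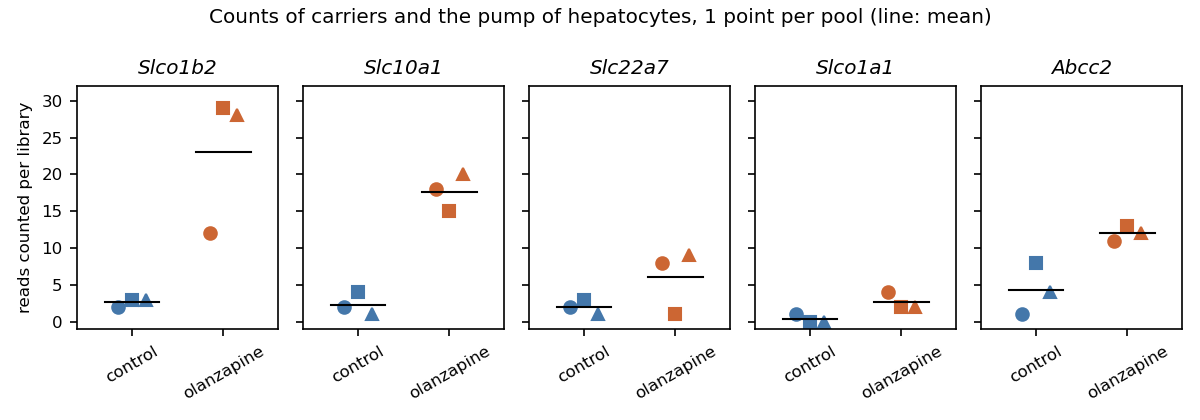
Reads counted per library for 4 sinusoidal carriers and the pump Abcc2, with 1 point per pool (circle, square and triangle for pools 1, 2 and 3) and a line at the group mean. The olanzapine pools lie above the control pools in each panel except Slc22a7, where olanzapine pool 2 has 1 read.

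The hepatocyte markers rose in the same pools. Of the 14 markers, which include secreted proteins, enzymes and the factor Hnf4a, each was called, and the fitted log2 differences ran from 2.21 in Apoh to 5.28 in Apob, and 0 of them were at 0 in any pool. Alb, which encodes serum albumin, had 460, 507 and 268 counts under the control diet, against 5049, 6632 and 5345 under olanzapine, and Hnf4a had 1 count in each control pool and 32, 34 and 35 in the olanzapine pools. For every 1000 counts of Alb there were 15.2, 19.7 and 18.7 counts of the 4 carriers in the control pools, against 8.32, 7.09 and 11.0 in the olanzapine pools. Kidney and intestine markers were near 0 in both groups: 1 of 7 passed the filter in each list and 0 were called, the lists summed to 0.241 to 0.404 FPKM and 0.250 to 0.399 FPKM over the 6 pools, and Umod, Alpi and Fabp6 had 0 counts in all pools. The intestine marker Fabp2, below the count filter, separated the groups, with 0 counts in each control pool and 3, 5 and 6 in the olanzapine pools. The part of hepatocyte RNA in the rise of Slco1b2 was not tested, and in bulk tissue more cells of a type and more RNA per cell cannot be told apart.

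Among the exporters of hepatocytes, the olanzapine pools were above the control pools in Abcc2 and Abcc3 and overlapped them in Abcc6, and none of the 3 passed the adjusted p. Abcc2, the pump that sends bilirubin conjugates into bile, had 1, 8 and 4 counts under the control diet, against 11, 13 and 12 under olanzapine. Its log2 fold change was 1.47 (SE 0.68) (adjusted p = 0.318, edgeR), and the counting interval of its ratio of 2.81 ran from 1.46 to 5.78. Abcc3, which returns conjugates and bile salts to blood, had 73, 96 and 90 against 126, 134 and 111 counts, with a log2 fold change of 0.54 (adjusted p = 0.229). At 0.434 FPKM in the control group, Abcc3 was above the summed level of the 4 sinusoidal carriers in that group. Abcc6, a pump of liver and kidney whose loss leads to ectopic calcification, had 25, 5 and 25 against 20, 31 and 17 counts.

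The rest of bile acid handling was looked at through 25 genes of synthesis, conjugation, other bile transport and its nuclear receptors, of which 12 were tested and 0 were called by edgeR or DESeq2. At an unadjusted p under 0.05, edgeR placed 3 higher (Baat, Slc27a5 and Cyp27a1) and 2 lower (Abcb1a and Abcg2), against 9.19% and 8.4% of all genes. The 2 lower genes are pumps of the endothelium, described below, and none of the genes of synthesis or conjugation was lower at that p. The median log2 fold change of the whole list, these pumps included, was 0.00, the same as over all genes. Baat, which joins bile acids to taurine and glycine, had 2, 8 and 9 counts under the control diet, against 23, 34 and 17 under olanzapine, a log2 fold change of 1.96 (adjusted p = 0.149, edgeR). Slc27a5, the bile acid CoA ligase, had 6, 19 and 6 against 39, 42 and 20 counts, a log2 fold change of 1.72 (adjusted p = 0.180). Both genes had their olanzapine pools above their control pools. The sterol 27-hydroxylase Cyp27a1 had 211, 220 and 273 against 301, 387 and 311 counts, a log2 fold change of 0.52 (adjusted p = 0.156). Cyp7a1, the rate-limiting enzyme of the classic synthesis route, had 1 read in the 6 pools together, and Slc51a and the bile acid receptor Gpbar1 had 0. Among the other genes under the count filter, and chosen after their values were seen, Nr1i3 had 0 counts in each control pool against 2, 13 and 5 under olanzapine, Akr1d1 had 0 in each against 5, 4 and 1, and Cyp8b1 had 1, 0 and 0 against 1, 5 and 4. The groups overlapped in Abcb11, Abcg5, Abcg8, Slc51b, Nr1h4, Nr0b2 and Nr1i2, which were also under the filter. The list was led in level by Cyp7b1 at 4.17 FPKM, Hsd3b7 at 4.08 FPKM and Abcb1a at 3.76 FPKM over the 6 pools, the first 2 being oxysterol enzymes with log2 fold changes of -0.09 and 0.10.

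Of the broadly expressed pumps, Abcc5 rose in the olanzapine pools. Abcc5 encodes Mrp5, which exports cyclic nucleotides and glutamate conjugates. Its counts were 4887, 4943 and 4211 in the 3 control pools in order, against 7574, 6367 and 7514 in olanzapine pools 1 to 3, with no overlap between the groups. The level went from 10.8 ± 0.881 FPKM (SD, n = 3 pools) to 17.0 ± 1.53 FPKM (SD, n = 3), and the log2 fold change was 0.64 (SE 0.10) (adjusted p = 0.0233, edgeR's quasi-likelihood test, Benjamini-Hochberg adjusted). The fold change of 1.55 was under the limit of 2, so the gene was not called. The adjusted p was 0.0691 to 0.0944 without control pool 1, control pool 2, control pool 3 or olanzapine pool 3, and 0.0201 and 0.0263 without olanzapine pools 2 and 1. Among 4 astrocyte, 4 oligodendrocyte and 4 microglia markers, 0 were called in either direction by edgeR, which placed 3 lower and 0 higher at an unadjusted p under 0.05, against 8.4% and 9.19% of all genes. All 4 astrocyte markers had negative log2 fold changes, with a median of -0.22, and DESeq2 called no marker lower.

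Abcc10, which encodes Mrp7, a pump of lipophilic drugs, had 351, 409 and 345 counts under the control diet, against 490, 536 and 531 under olanzapine. The groups did not overlap here either. The log2 fold change was 0.52 (SE 0.12) and missed the threshold in edgeR (adjusted p = 0.0698) but not in DESeq2 (adjusted p = 0.0113). Its exons overlap those of Dlk2 on the other strand, and the strand setting of the counting is not given in the sources used here. How reads from the overlapping stretch were counted is therefore uncertain.

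The receptors of ATP-sensitive potassium channels went in opposite directions in fitted value, and neither passed the adjusted p. Abcc9, the receptor of vascular channels, had 341, 352 and 319 counts under the control diet, against 293, 203 and 195 under olanzapine. All olanzapine pools were below the control pools, and the log2 fold change was -0.52 (SE 0.19) (adjusted p = 0.212, edgeR). Its exons overlap those of 5330439B14Rik on the other strand. Without olanzapine pool 1 the log2 fold change was -0.76 and passed the threshold (adjusted p = 0.0375). Among 6 markers of pericytes and smooth muscle, the cells that carry Abcc9, 0 were called, and 3 of the 6 fold changes were positive and 3 negative. Only 1, Pdgfrb, was lower at an unadjusted p under 0.05 in edgeR, against 8.4% of all genes. Pdgfrb had 865, 873 and 765 against 667, 612 and 565 counts, without overlap (log2 fold change -0.42, adjusted p = 0.103, edgeR). The summed level of the 6 markers was 42.8 to 48.2 FPKM in the control pools and 59.5, 40.2 and 37.3 FPKM in olanzapine pools 1 to 3. The sum was thus lowest in the pools lowest in Abcc9, with Vtn its largest part in every pool. Abcc8, the receptor of neuronal and islet channels, had 462, 380 and 461 against 639, 451 and 441 counts, which overlapped (log2 fold change 0.26, adjusted p = 0.510). The pore gene Kcnj11, with 1013, 1086 and 905 against 1508, 945 and 968 counts, was like Abcc8 highest in olanzapine pool 1. The other pore gene, Kcnj8, the partner of Abcc9 in vessels, had 138, 171 and 180 against 174, 130 and 162 counts and a log2 fold change of -0.04, and did not share the order of Abcc9.

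**Figure D4:**
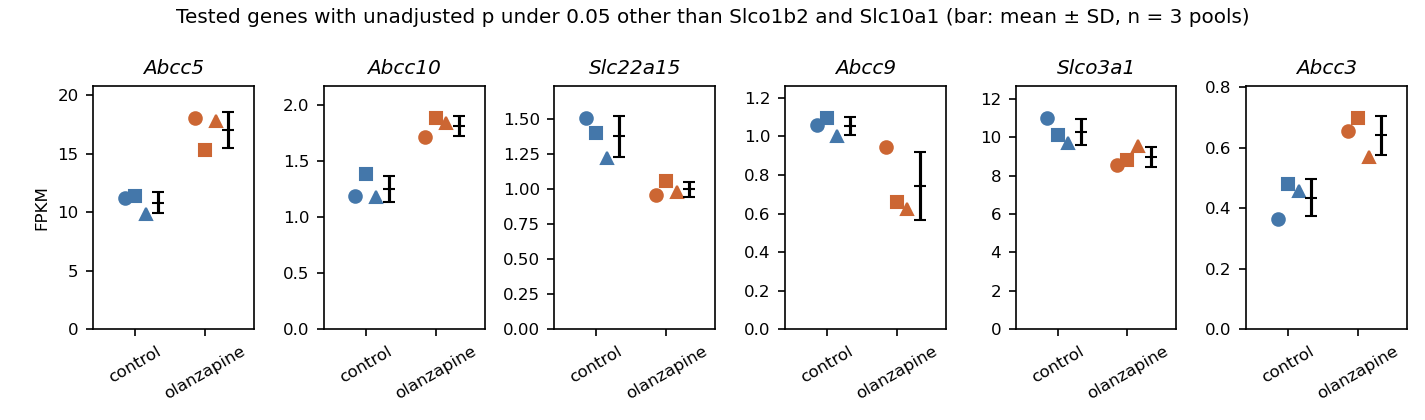
FPKM of the 6 tested genes with an unadjusted p under 0.05 other than Slco1b2 and Slc10a1, with 1 point per pool (circle, square and triangle for pools 1, 2 and 3) and the mean ± SD of 3 pools beside each group. Abcc5, Abcc10 and Abcc3 lie higher in the olanzapine pools and Slc22a15, Abcc9 and Slco3a1 lower, with no overlap in any panel.

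Of the 7 carriers of the brain barriers, 5 differed widely between pools of the same group and Slco2b1 and Abcc1 did not, and 0 of the 7 had an unadjusted p under 0.05 with edgeR or an adjusted p under 0.05 with DESeq2. Slco1c1, which carries thyroxine into the brain, had 1667, 2476 and 3361 counts in the 3 control pools in order, against 1825, 2739 and 1338 in olanzapine pools 1 to 3. The lowest and the next to lowest pool belonged to different groups, as did the highest and the next to highest. Ttr, the thyroxine carrier protein made by the choroid plexus, ranked the 6 pools in the same order, with 1398, 95227 and 269659 against 38825, 167154 and 808 counts. All 9 choroid plexus markers were tested, 0 were called, and none was at 0 in a pool.

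A choroid plexus score, the centred mean log2 CPM of the 9 markers, was therefore added to the model as a covariate, a choice made after seeing the data. Slco1c1 rose by 0.19 (SE 0.02) on the log2 scale per log2 unit of the score (adjusted p = 0.0126, edgeR), the only one of the 35 slopes to pass, against 0.568% of all genes. Since the shared order of Slco1c1 and Ttr had prompted the score, this slope describes that order and is not independent of it. Its group difference went from -0.33 without to -0.17 with the score, and neither passed. Slco1a5, an anion carrier of the choroid plexus, had a slope of 0.54 (adjusted p = 0.137) and 10, 48 and 74 against 12, 39 and 7 counts. Abcc4, which encodes Mrp4, had a slope of 0.15 (adjusted p = 0.174) and 488, 594 and 840 against 485, 551 and 321 counts. Control pool 3 was the highest and olanzapine pool 3 the lowest in all 3 of these genes, which were named for the slope after it was seen. With the score in the model, Abcc5 kept a log2 fold change of 0.60 (adjusted p = 0.0266), whereas Slco1b2, at 3.07, had an adjusted p of 0.0618.

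Slco1a4, the anion and statin carrier of brain capillaries, followed another order, with 894, 1008 and 1011 counts under the control diet, against 986, 708 and 496 under olanzapine. Olanzapine pool 1 lay among the control pools, and the other 2 below them. The log2 fold change was -0.38 (adjusted p = 0.419, edgeR) with a 95% interval from -0.90 to 0.13. The endothelial pumps Abcb1a, with 999, 1088 and 829 against 806, 475 and 386 counts, and Abcg2, with 408, 460 and 453 against 382, 336 and 230, were lowest in the same 2 pools. Their log2 fold changes were -0.78 (adjusted p = 0.182) and -0.45 (adjusted p = 0.278), and Abcb1a passed the adjusted p in DESeq2 (0.0306) and without olanzapine pool 1 (0.00668). The 8 markers of brain endothelium summed to 106 to 118 FPKM in the control pools and to 117, 91.8 and 85.1 FPKM in olanzapine pools 1 to 3, with 0 called, all 8 negative in fold change and none at 0. Without olanzapine pool 1, the endothelial markers Cdh5 and Tek were called lower. The part of endothelial content in the level of Slco1a4 was not tested.

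Among the other barrier carriers, Slc22a8, the anion carrier Oat3, had 281, 445 and 345 counts under the control diet, against 397, 317 and 137 under olanzapine, with olanzapine pool 3 the lowest. Slco2b1, a carrier of steroid sulfates, and Abcc1, which encodes Mrp1, were even across pools, with log2 fold changes of 0.02 each. Their 95% intervals ran from -0.24 to 0.27 and from -0.19 to 0.23. The exons of Slco2b1 overlap those of Gm15635 and Gm34280 on the other strand.

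**Figure D5:**
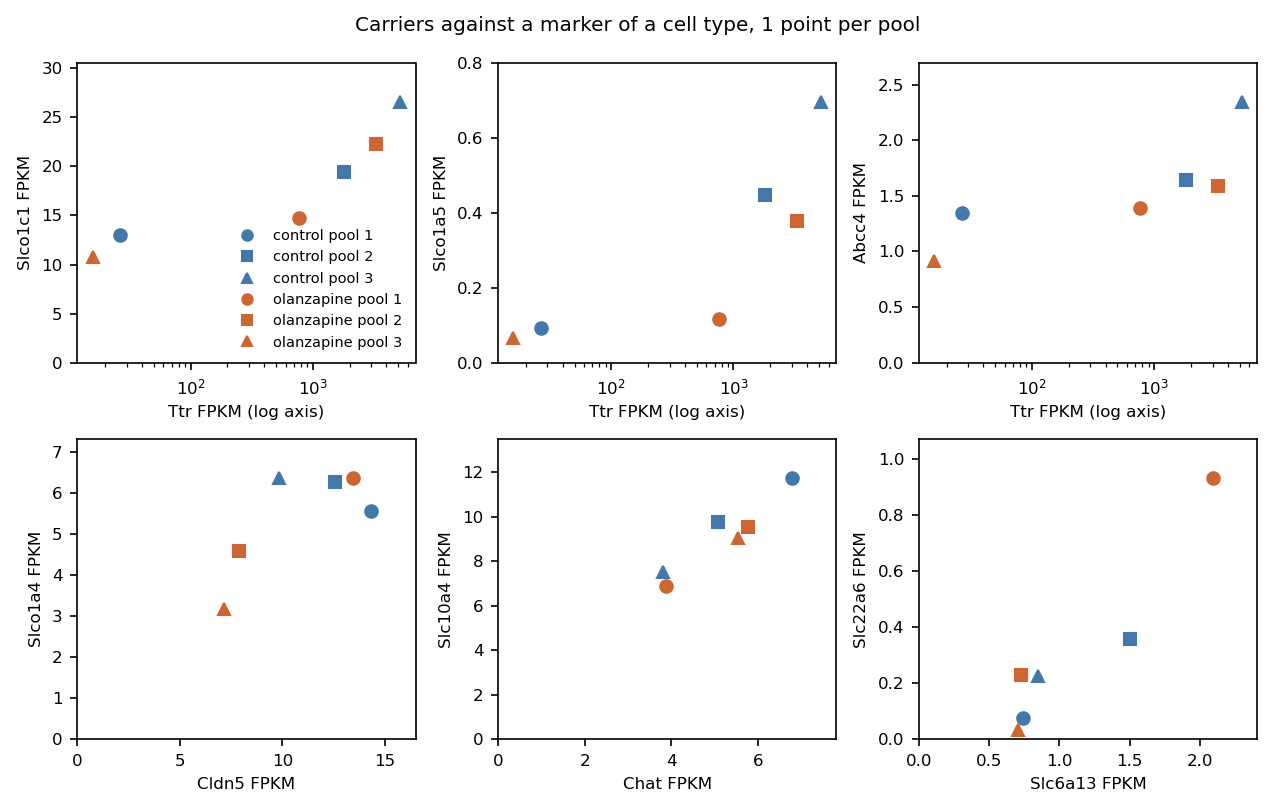
FPKM of 6 carriers against that of a marker gene in the same pool, with 1 point per pool (blue control, orange olanzapine; circle, square and triangle for pools 1, 2 and 3); the Ttr axes are on a log scale. Slco1c1 has the same order of pools as Ttr, from olanzapine pool 3 to control pool 3, and Slco1a4 is lowest in olanzapine pools 2 and 3, where Cldn5 is lowest.

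Of the carnitine and ergothioneine carriers, 4 of 5 were tested and 0 passed the adjusted p in edgeR or DESeq2. Slc22a15, a carrier of zwitterions such as ergothioneine, had 400, 370 and 320 counts under the control diet, against 244, 269 and 253 under olanzapine. The groups did not overlap, and the log2 fold change was -0.49 (SE 0.14) (adjusted p = 0.128, edgeR). Slc22a5, the carnitine carrier Octn2, had 366, 445 and 382 against 465, 480 and 473 counts, all olanzapine pools above (log2 fold change 0.27, adjusted p = 0.289). Slc22a4, the ergothioneine carrier Octn1, and Slc22a21 lie beside it on chromosome 11 and overlapped between the groups, with log2 fold changes of -0.17 and 0.04.

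Of the carriers tied to transmitters, Slc10a4, a protein of cholinergic and monoaminergic synaptic vesicles, had 974, 809 and 618 counts under the control diet, against 550, 760 and 729 under olanzapine. The groups overlapped (log2 fold change -0.22, adjusted p = 0.582, edgeR). Chat, the enzyme that makes acetylcholine, had 761, 567 and 421 against 418, 620 and 604 counts, so by count both genes were highest in control pool 1 and lowest in olanzapine pool 1, with control pool 3 next to it. The 3 cholinergic markers summed to 10.2 to 16.7 FPKM in the control pools and 10.2 to 13.6 FPKM in the olanzapine pools, with 0 called. Slc22a3, the monoamine carrier Oct3, had 120, 155 and 149 against 96, 172 and 166 counts, which overlapped, and its exons overlap those of Plg on the other strand.

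Among the prostaglandin and broad anion carriers, Slco3a1 had 2357, 2163 and 2048 counts under the control diet, against 1766, 1808 and 1983 under olanzapine. Each olanzapine pool was below each control pool, by a small margin, with a log2 fold change of -0.22 (adjusted p = 0.219, edgeR). Slco4a1 and Slco5a1 overlapped between the groups, with log2 fold changes of -0.16 and -0.24. Slco2a1, the prostaglandin carrier of vessels and meninges, ranged from 1 count in control pool 1 to 43 in olanzapine pool 1, and the kidney and meningeal anion carrier Slc22a6 from 5 counts in olanzapine pool 3 to 144 in olanzapine pool 1. The 9 markers of meningeal fibroblasts summed to 17.5, 42.8 and 76.9 FPKM in control pools 1 to 3, and 33.5, 61.3 and 13.5 FPKM under olanzapine. These sums ranked the pools as Ttr did, and so did Igf2 and Slc13a4, the most abundant of the 9. The sums thus say little about the other markers of the list. Slc6a13 was highest in olanzapine pool 1, with 209 counts against 71 to 155 elsewhere, and so was Crabp2, with 64 against 25 to 63. Col1a1 had its highest count, 218, in both olanzapine pool 1 and control pool 2. By count, Dcn, Lum, Col1a2 and Slc13a3 were highest in other pools. Of these 9 markers 0 were called by edgeR, with 0 at an unadjusted p under 0.05, and DESeq2 called none lower. Without olanzapine pool 1, both log2 fold changes turned negative, to -0.37 for Slco2a1 and -0.80 for Slc22a6, so neither has a direction in these data.

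The 6 carriers known mostly from kidney and gut summed to 1.00 to 2.05 FPKM in the control pools and 1.42 to 2.11 FPKM in the olanzapine pools, and 0 of the 3 tested passed an adjusted or an unadjusted p under 0.05 in edgeR, or an adjusted p under 0.05 in DESeq2. The urate carrier Slc22a12, whose exons overlap those of Nrxn2 on the other strand, had 40 to 110 counts per pool and a log2 fold change of -0.39, and Slco4c1 had 34 to 61 counts and one of 0.43, with overlap between the groups in both. Slc22a2, the renal cation carrier Oct2, did not pass the count filter, with 10, 14 and 13 counts under the control diet, against 7, 7 and 4 under olanzapine. These groups did not overlap, and the ratio of 0.494 had a counting interval from 0.265 to 0.890. That interval leaves out the spread between pools and is not a test of the groups. In fits without the filter, Slc22a2 did not reach an unadjusted p under 0.05 with edgeR or DESeq2. Slc10a2, the ileal bile acid carrier, had 0 counts under the control diet, against 2, 0 and 5 under olanzapine. Over the 21 genes that did not pass the count filter, the highest mean level was 0.0965 FPKM, 9 had more counts in the olanzapine pools in sum and 4 had fewer. Fits without the filter covered the 13 of them with any read and gave an adjusted p under 0.05 to 0 with edgeR, with 1 at an unadjusted p under 0.05, while DESeq2 gave an adjusted p to 3 of the 13, all above the threshold.

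The families are clustered in the genome, which allowed neighbours to be compared. The stretch chr6:141524368-142702315 holds 7 of the 56 genes, namely Slco1c1, Slco1b2, Slco1a4, Slco1a1, Slco1a6, Slco1a5 and Abcc9. Slco1b2 was higher in all olanzapine pools as was Slco1a1 at 2 to 4 counts, while their neighbours Slco1c1 and Slco1a4 overlapped between the groups and Abcc9 was lower in all olanzapine pools. The 8 genes on chr19:7673061-8628299 ranged in level from Slc22a8, at 2.06 FPKM over the 6 pools, to Slc22a26 and Slc22a27, with no read. Members of the Slco1a group and of this Slc22a cluster are close copies, and since how reads with several matching places were counted is not given in the sources used here, the low counts of Slco1a1, Slco1a6, Slc22a29 and Slc22a30 are uncertain.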

How the data were processed

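Septal RNA of 6 pools of 3 mice was sequenced. The authors trimmed reads with fastp, aligned them to mm10 with HISAT2, counted them per gene with HTSeq, per the labels and methods, and deposited raw counts and FPKM for 35415 genes. Every column of values was used. The strand setting and the treatment of reads with several matches are not given in the sources used here, so overlapping and duplicated genes are uncertain.

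Genes and lists were chosen with earlier results of these data known. Groups came from the labels. Counts were TMM-normalized and tested with edgeR 4.0.16 in R 4.3.3, by its quasi-likelihood test on group alone, after filterByExpr (minimum count 10, total 15), with Benjamini-Hochberg adjustment over 17255 genes. This departs from the study's tool, DESeq2, which is an alternative (version 1.42.0). Others were RLE or upper-quartile scaling, no filter, a mean of 50 counts, the replicate number as block, limma 3.58.1 on log2(FPKM + 1) or log2(FPKM + 0.1), an unadjusted p, and leaving out each pool. With 3 pools per group an exact permutation test cannot go below p = 0.1. Counts were also simulated for this comparison over 17255 genes, with the same dispersion for every gene and the changed genes drawn from all of them. There edgeR called 93% of 100 genes changed 2.5-fold and 98% of 100 changed 4-fold, with 1 false call. These shares do not carry over to scarce or more variable genes, such as the hepatocyte carriers. Every member could be named, with values in all pools for those that pass an adjusted or unadjusted p of 0.05, the 5 with the highest mean FPKM, those of the hepatocyte, barrier, channel and transmitter lists, and for the defining markers. The values of Slc22a5, Slc22a2, Slc10a2 and the carriers named for kidney, gut and prostaglandins were chosen after they were seen. Same-numbered pools were not paired (correlations of deviations -0.25 to 0.06). Within each group, no 2 pools agreed within counting noise. Gene positions came from GENCODE for GRCm38, promoter windows from RefSeq. Results of 1 gene are not reported here.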

Additional observations from a re-analysis of the deposited data

How the results depend on the processing

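Against 1 gene called higher with edgeR, DESeq2 called 2, an unadjusted p with the fold limit called 2, and 0 were called without a count filter, at a mean of at least 50 counts, with limma on log2(FPKM + 1), on log2(FPKM + 0.1) or on log2(FPKM + 1) without a filter, or with the choroid plexus score, and 0 to 1 when 1 pool was left out. Slco1b2 was not tested at a mean of 50 counts or at a mean of 0.1 FPKM. Without the fold limit, the count of 2 became 4 with DESeq2, 1 without a count filter, at a mean of 50, with each of the 3 limma fits and with the score, and 0 to 2 when 1 pool was left out. In the other direction it went from 0 to between 0 and 1 (Abcc9, without olanzapine replicate 1). Likewise 0 to 1 genes of the bile acid list (Abcb1a) and 0 to 2 markers (Cdh5 and Tek) were called lower when 1 pool was left out, each time without olanzapine replicate 1, and the 14 markers called higher became 9 with limma on log2(FPKM + 1) without a filter.

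With the replicate number as a block, 0 genes were called and 0 passed without the fold limit: the adjusted p of Abcc5 was 0.0727 and that of Slco1b2 was 0.103. The pool numbers do not pair samples across groups, with correlations of -0.00, 0.06 and -0.25 between same-numbered pools, so this fit is only an alternative.

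Of the log2 fold changes of single genes under all alternatives, 710 stayed on their side of the threshold, 6 newly passed and 15 no longer passed. Abcc5 passed in 10 of 16 alternatives and Slco1b2 in 4 of 13, each with a positive value in all of them. With RLE and upper-quartile scaling Slco1b2 was still called and Abcc5 still passed the adjusted p. The cause of the lost calls was not tested, apart from the smaller number of pools when 1 is left out. Low counts limit the hepatocyte carriers. Genes under the count filter were tested in fits without the filter, and a few also when 1 pool was left out, where 36 or 37 members passed it, against 35 in the main fit.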
